A study of Mus musculus with 6 samples.

Results

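The caveolae coat genes are the genes for the proteins that build and hold the flask-shaped pits of the plasma membrane called caveolae. They were taken as a named set of 9 genes, the caveolins *Cav1*, *Cav2* and *Cav3*, the cavins *Ptrf* (cavin 1), *Sdpr* (cavin 2), *Prkcdbp* (cavin 3) and *Murc* (cavin 4), and the membrane-shaping partners *Ehd2* and *Pacsin2*. All 9 were found among the 33460 genes measured. The rule is a list of gene names without a threshold on expression. RNA-seq was performed on FACS sorted brain mural cells (3 libraries) and on brain microvascular fragments (3 libraries). All 6 libraries came from brains of mice at postnatal day 6 that carried both reporters, *NG2-DsRed* and *Pdgfrb-eGFP*, the latter line being Tg(Pdgfrb-eGFP)JN169Gsat/Mmucd. Mural cells, which are the pericytes and vascular smooth muscle cells that wrap the endothelial tube, were sorted as cells positive for both reporters. The sort therefore depends on the *Pdgfrb* and *NG2* promoters being active in a cell. Microvascular fragments were pulled from digested tissue with beads carrying antibody to CD31, and they hold endothelial cells together with attached mural cells. A fragment value is thus a mixture that includes the other group's cell type, and each ratio below compares the sorted cells with that mixture and not with purified endothelium. The tissue came from 3 animals, with one side of each brain used for sorting and the other for fragments, and p-values measure the spread between these samples alone.

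Caveolae form when caveolin 1, a hairpin-shaped membrane protein, assembles into oligomers and recruits cavin 1, without which the pits do not form. Caveolin 2 depends on caveolin 1 to reach the cell surface, and caveolin 3 and cavin 4 are the muscle forms. The other cavins join cavin 1 in the coat, while EHD2, an ATPase at the neck, holds the pit at the surface and PACSIN2 bends the membrane. Caveolae are plentiful in smooth muscle and in many endothelia, whereas transport by caveolae is held low in endothelium of the blood-brain barrier.

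The summed messenger RNA of the coat was high in both groups, with *Cav3* and *Murc* near 0, and the cavins *Prkcdbp*, *Sdpr* and *Ptrf* had the largest log2 fold changes of the tested members. Levels are given as FPKM, sequenced fragments per kilobase of transcript scaled to the size of the library, which allows levels of different genes to be compared. The 9 members together summed to 614.7, 760.5 and 726.6 FPKM in sorted cells, against 509.5, 468.6 and 424.9 in fragments. Every mural sum lay above every fragment sum. The 7 members that reached 1 FPKM in 3 or more libraries were tested. Among them *Ptrf*, *Prkcdbp* and *Ehd2* were higher in mural cells and *Sdpr* was lower, each at an adjusted p under 0.05 in limma. These 4 of 7 compare with 22.4% of the 14801 genes tested that passed in either direction, 9.34% upwards and 13.0% downwards. With a 2-fold ratio of mean FPKM also required, 1 member (*Prkcdbp*) was called enriched against 6.43% of all genes, and 1 (*Sdpr*) was called lower against 10.1%. The groups were separate for 6 of the 7 tested members, in 4 with every mural library above every fragment library (16.5% of all genes) and in 2 with every mural library below (24.5%). The median log2 fold change of the 7 members was 0.44, beside -0.12 for all genes tested.

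**Figure D1:**
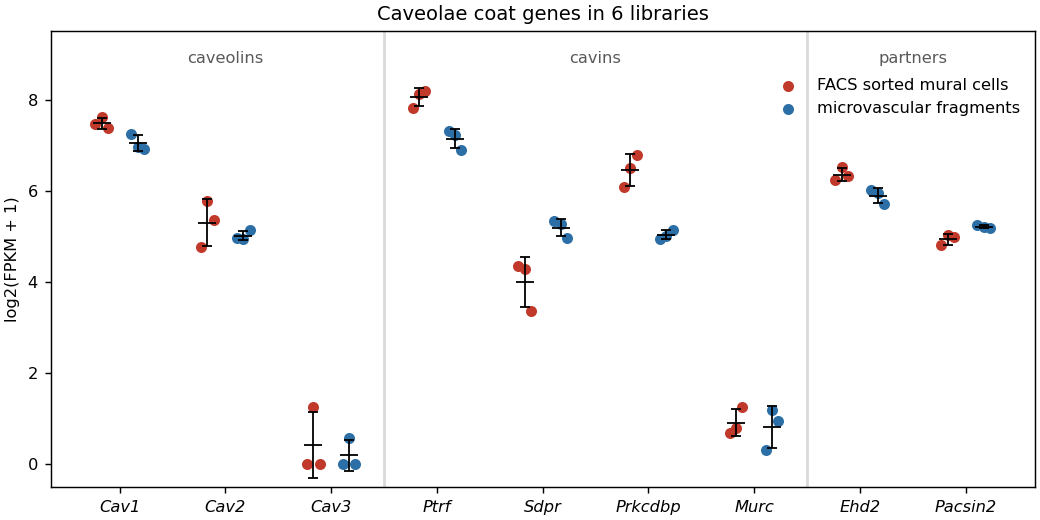
Level of each caveolae coat gene as log2(FPKM + 1), 1 point for each of the 3 mural cell and 3 microvascular fragment libraries, with bars for the mean ± SD. *Ptrf* and *Cav1* stand highest in both groups, the mural points of *Sdpr* (FPKM 9.34 to 19.4) lie below its fragment points (30.3 to 39.2), and *Cav3* and *Murc* stay near the bottom in every library.

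The cell types in the libraries were checked with marker lists. All 11 mural markers were enriched, at a median of 908% of the fragment level, as were 7 of 8 smooth muscle markers (937%). The mural list includes *Pdgfrb* and *Cspg4* (NG2), whose promoters drove the reporters used in the sort, so their enrichment was built into it. Endothelial markers were present in the sorted cells. The 12 genes on that list stood at a median of 63.3% of the fragment level, with 7 lower at an adjusted p under 0.05 and 2 of these called lower, and their summed FPKM was 1568 to 2016 in mural cells and 2137 to 2509 in fragments. Microglial markers were lower in 8 of 8 cases (8.94%), while 5 of 6 tested fibroblast markers, genes of collagen-producing connective tissue cells, were enriched (791%). On the fibroblast list, *Col1a2* and *Col3a1* are also in the authors' catalogue of mural cell-enriched genes. None of 8 astrocyte markers passed the test (limma, median 116%), 1 had an unadjusted p under 0.05, and the astrocyte sum was 750.3 in mural cells 3 against 211.7 and 256.8 in the other mural libraries. Markers of oligodendrocyte precursors, neurons and red blood cells had 0 calls at the 2-fold threshold. In limma, *Pdgfra* of the precursor list was higher (adjusted p = 0.048) and *Stmn2* of the neuron list was lower (adjusted p = 0.028). Of all genes tested, 9.34% passed upwards and 13.0% downwards. No other gene of these lists had an unadjusted p under 0.05, and *Pdgfra* is also on the fibroblast list. The share of all genes at an unadjusted p under 0.05 was not computed. The smooth muscle sum was 1226 in mural cells 1 against 2264 and 2451 in mural cells 2 and 3. In bulk libraries such as these, fewer cells of a type and less RNA per cell cannot be told apart.

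Promoter sequences are shown for the cavin with the highest level and the cavin that was lower in mural cells, because these neighbours in the same coat moved in opposite directions. They cover the 250 bases before a RefSeq transcription start in GRCm38.p6, 5′ to 3′ on the strand of the gene. The *Ptrf* window is chr11:100970616-100970865 on the minus strand, and the *Sdpr* window is chr1:51288876-51289125 on the plus strand. Capitals mark matches on either strand to the CCAAT box, the GC box (GGGCGG) or the motif of TEAD factors (GGAATG), 3 of the 6 motifs searched.
Ptrf: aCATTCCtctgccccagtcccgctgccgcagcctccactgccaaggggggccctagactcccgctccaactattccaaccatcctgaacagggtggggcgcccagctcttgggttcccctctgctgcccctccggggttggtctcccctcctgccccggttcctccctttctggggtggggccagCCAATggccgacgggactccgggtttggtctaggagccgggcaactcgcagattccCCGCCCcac
Sdpr: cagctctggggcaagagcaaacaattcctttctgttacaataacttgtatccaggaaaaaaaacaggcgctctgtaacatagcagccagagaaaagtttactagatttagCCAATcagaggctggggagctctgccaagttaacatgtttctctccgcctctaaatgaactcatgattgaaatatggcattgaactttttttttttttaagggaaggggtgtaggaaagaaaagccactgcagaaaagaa
The *Ptrf* window has a GC content of 67.6% and the *Sdpr* window 40.4%. In the *Ptrf* window the matches begin 249 bases (GGAATG, minus strand), 65 bases (CCAAT) and 9 bases (GGGCGG, minus strand) before the start. The *Sdpr* window holds a single match, to CCAAT, 140 bases before the start. Among 32851 promoters of the same length, CCAAT was present in 33.8%, GGGCGG in 32.7% and GGAATG in 12.6%. The remaining motifs searched were the TATA box (TATAAA, 12.4%), the core site of ETS factors (CCGGAA, 12%) and the CArG box (1.47%), the element bound by serum response factor. RefSeq windows were matched for 8 of the 9 members, 12 windows in all, and neither CCGGAA nor the CArG box matched in any of them. The member without a window was *Prkcdbp*, the coat gene called enriched. Any link between promoter sequence and the direction of change was not tested.

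*Ptrf*, which encodes cavin 1 (ENSMUSG00000004044, chr11:100818047-100832201 in NCBIM37, minus strand), had the highest level of the coat genes in mural cells. Its FPKM was 225.9, 279.4 and 291.4 in mural cells, against 157.5, 147.5 and 118.8 in fragments. Every mural library exceeded every fragment library, with means of 265.6 ± 34.8 and 141.3 ± 20.1 (SD, n = 3 each). The log2 fold change, fitted on log2(FPKM + 1), was 0.91 (SE 0.15, 95% interval 0.55 to 1.27, adjusted p = 0.0057 in limma). The ratio of means was 1.88 and so *Ptrf* fell short of the 2-fold threshold. Without mural cells 1, *Ptrf* passed it, with a log2 fold change of 1.02 (adjusted p = 0.0063 in limma). Among the mural libraries, mural cells 1 had the lowest smooth muscle sum (1226) and the highest endothelial sum (2016). The parts of these signals in the *Ptrf* values were not tested.

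*Prkcdbp*, the gene for cavin 3, a binding partner of protein kinase C delta (ENSMUSG00000037060, chr7:112629121-112630711, minus strand), was the coat gene with the greatest ratio among the 7 tested. It had an FPKM of 67.2, 90.0 and 109.5 in mural cells, against 29.9, 31.2 and 34.4 in fragments. The groups were far apart, at 88.9 ± 21.2 against 31.9 ± 2.30 (SD, n = 3 each), and the spread among mural libraries was the wider. The mean ratio was 2.79 and the log2 fold change 1.43 (SE 0.19, 95% interval 0.99 to 1.86, adjusted p = 0.0018 in limma). *Prkcdbp* has a single transcript in the annotation, so its FPKM could be turned back into about 99, 56 and 72 fragments in mural cells, against 116, 111 and 134 in the microvascular libraries. It was called enriched under every alternative tried.

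*Sdpr*, the gene for cavin 2, which helps set the curvature of the caveolar membrane (ENSMUSG00000045954, chr1:51345970-51359803, plus strand), moved the other way. Its FPKM was 19.4, 18.4 and 9.34 in mural cells, against 39.2, 37.4 and 30.3 in fragments, corresponding to about 98, 39 and 21 fragments against 514, 449 and 401. No mural library reached the lowest fragment library, and mural cells 3 had the lowest value. In that library the astrocyte sum was highest and the endothelial sum lowest (1568, against 2016 and 1667 in mural cells 1 and 2). The means were 15.7 ± 5.52 and 35.6 ± 4.67 (SD, n = 3 each), a ratio of 0.44, and the log2 fold change was -1.19 (SE 0.28, 95% interval -1.84 to -0.54, adjusted p = 0.020 in limma). Without mural cells 3 the log2 fold change was -0.88 (adjusted p = 0.013) and the ratio no longer passed the 2-fold threshold. The call was also lost without fragments 1, 2 or 3, with adjusted p of 0.084, 0.076 and 0.052. The parts of the astrocyte and endothelial signals in these values were not tested.

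*Murc*, the gene for the muscle cavin (ENSMUSG00000028348, chr4:48676386-48686374, plus strand), was near the lower limit of measurement. Its FPKM was 0.611, 0.728 and 1.38 in mural cells, against 0.236, 1.28 and 0.931 in fragments, so that the groups overlapped. It did not pass the filter on low values and was not tested.

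Within the cavin family the make-up of the messenger pool differed between the groups. *Ptrf* supplied 71.6 ± 0.74% of the summed cavin FPKM in mural cells and 67.2 ± 2.57% in fragments (SD, n = 3 each). The share of *Sdpr* was 6.18, 4.73 and 2.27% in mural cells, against 17.3, 17.2 and 16.4% in fragments. *Prkcdbp* had 21.5, 23.2 and 26.6% in mural cells, against 13.2, 14.4 and 18.6% in fragments. For both genes the shares of the groups were separate. The ratio of *Prkcdbp* to *Sdpr* within a library, a quantity chosen after the values were seen, was 3.47, 4.90 and 11.7 in mural cells, against 0.764, 0.836 and 1.13 in fragments. Cavin 3 messenger thus exceeded cavin 2 messenger in all 3 mural libraries and in 1 of 3 fragment libraries. The geometric means of this ratio differed 6.51-fold between the groups, which is given without a test because the members were picked for their opposite directions.

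**Figure D2:**
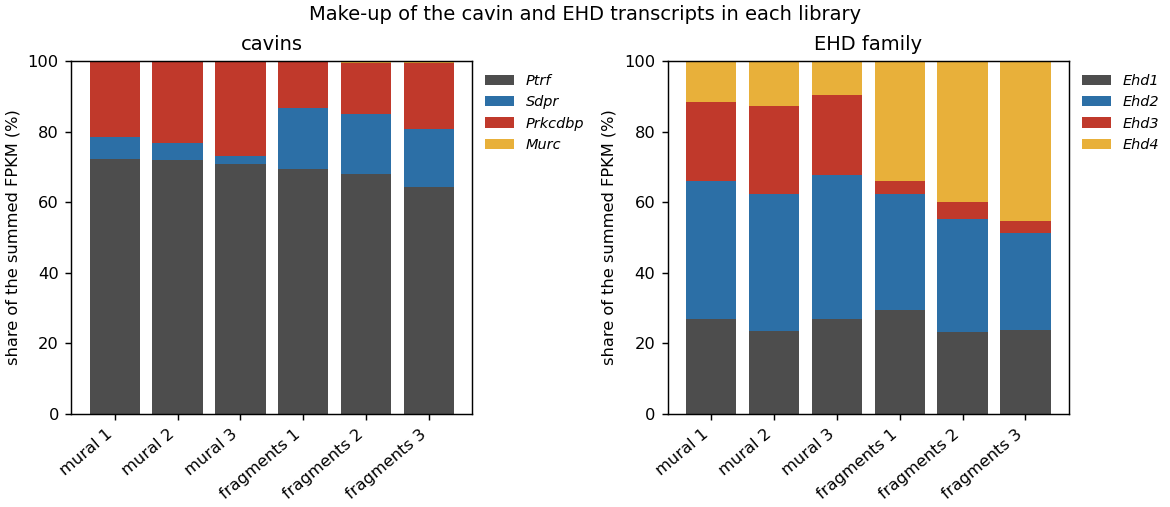
Share of the summed FPKM (%) that each member contributes within the cavin and EHD families, 1 stacked bar for each of the 6 libraries. The *Sdpr* share of the cavins is 2.27 to 6.18% in mural cells and 16.4 to 17.3% in fragments, and the *Ehd4* share of the EHD genes is 9.49 to 12.8% against 33.9 to 45.2%.

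*Cav1*, the gene for the main caveolin (ENSMUSG00000007655, chr6:17256335-17291452, plus strand), was high in both groups. It had an FPKM of 174.6, 194.7 and 165.3 in mural cells, against 151.6, 124.2 and 120.1 in fragments. All mural values lay above all fragment values, with means of 178.2 ± 15.0 and 131.9 ± 17.1 (SD, n = 3 each), levels above those of 98.3% and 97.3% of the genes tested. The ratio of 1.35 and the log2 fold change of 0.44 (SE 0.13, 95% interval 0.13 to 0.74) missed the threshold (adjusted p = 0.052 in limma). The adjusted p ranged from 0.039 to 0.13 over the alternatives that kept all libraries. It was under 0.05 with median-ratio scaling, with an FPKM filter of 5 (0.049) and among protein-coding genes alone (0.048). With the replicate block it was 0.077, and without any 1 library it was 0.054 to 0.17 (limma).

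*Cav2* (ENSMUSG00000000058, chr6:17231185-17239115, plus strand), whose product joins caveolin 1 in mixed oligomers, lies next to *Cav1* with a gap of 17.2 kb. It had an FPKM of 26.3, 53.8 and 40.1 in mural cells, against 30.3, 29.8 and 34.2 in fragments. The mural values spread on both sides of the fragment values. The log2 fold change of 0.29 (SE 0.25, 95% interval -0.29 to 0.87) did not pass the test (adjusted p = 0.46 in limma), which leaves room for a change in either direction. *Cav1* supplied 81.8 ± 4.64% of caveolin FPKM in mural cells and 80.5 ± 2.76% in fragments (SD, n = 3 each).

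*Cav3*, the muscle caveolin (ENSMUSG00000062694, chr6:112409495-112422865, plus strand), was listed at 0 in 4 libraries. Mural cells 2 had an FPKM of 1.40, which is about 1 fragment, and fragments 2 had 0.490, about 2 fragments. A floor of 3 fragments was used, which stands for an FPKM of 1.77, 4.20 and 3.97 in mural cells 1 to 3 and of 0.671 to 0.736 in the fragment libraries, and since every value lay below its floor, no fold is given. Genes of striated muscle were also near 0, since only 1 of 9 such markers passed the filter and their summed FPKM was 0.228 to 6.89 in mural cells and 1.84 to 9.03 in fragments.

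*Ehd2* (ENSMUSG00000074364, chr7:16532326-16552916, minus strand), the gene for the ATPase of the caveolar neck, was higher in mural cells by a small margin. Its FPKM was 73.9, 90.6 and 78.9 in mural cells, against 63.7, 60.8 and 51.0 in fragments, and the groups were separate. The means were 81.1 ± 8.58 and 58.5 ± 6.64 (SD, n = 3 each), a ratio of 1.39, with a log2 fold change of 0.47 (SE 0.14, 95% interval 0.15 to 0.79, adjusted p = 0.047 in limma). The adjusted p was 0.049 without mural cells 1 and between 0.077 and 0.17 without any other single library, and it was 0.063 with quantile normalization and 0.11 without the intensity trend.

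*Pacsin2* (ENSMUSG00000016664, chr15:83206037-83295036, minus strand), the gene for the membrane-bending F-BAR protein, had an FPKM of 26.8, 31.5 and 30.7 in mural cells, against 37.0, 36.0 and 35.1 in fragments. All mural values lay below the fragment values. The difference was small, with a mean ratio of 0.82 (log2 fold change -0.27, SE 0.12, 95% interval -0.57 to 0.02), and did not pass the test (adjusted p = 0.17 in limma).

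**Figure D3:**
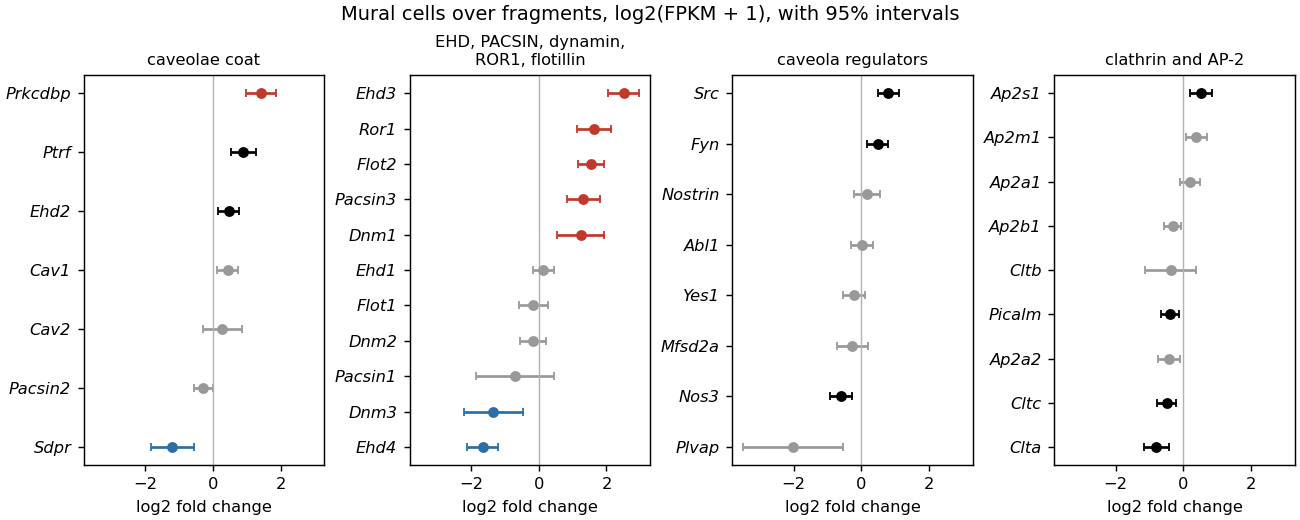
Log2 fold change (mural cells over microvascular fragments, on log2(FPKM + 1)) with its 95% interval for the tested genes of the caveolae coat, accessory, regulator and clathrin lists, with red for enriched, blue for lower, black for an adjusted p under 0.05 without a 2-fold ratio and grey for the others. *Prkcdbp* (1.43) is enriched and *Sdpr* (-1.19) lower among the coat genes, and *Ehd3* (2.50) and *Ehd4* (-1.66) lie far apart among the accessory genes.

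The order of mean levels also differed between the groups. In mural cells it ran from *Ptrf* through *Cav1* to *Prkcdbp* and *Ehd2*, then *Cav2* and *Pacsin2*, and then *Sdpr*. The ranges of *Prkcdbp* and *Ehd2* overlapped, as did those of *Cav2* and *Pacsin2*, and the other neighbours down to *Sdpr* were separate. In fragments the ranges of *Ptrf* and *Cav1* overlapped, *Ehd2* followed, and *Pacsin2*, *Sdpr*, *Prkcdbp* and *Cav2* lay together, each overlapping the next in the order. *Murc* and *Cav3* were last in both groups.

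Dividing each coat gene by *Cav1* of the same library removes any scaling factor common to the library. *Ptrf* amounted to 1.29, 1.44 and 1.76 times *Cav1* in mural cells, against 1.04, 1.19 and 0.990 times in fragments. The ratio of *Prkcdbp* to *Cav1* was 0.385, 0.462 and 0.663 against 0.197, 0.252 and 0.286, and that of *Sdpr* was 0.111, 0.0943 and 0.0565 against 0.259, 0.301 and 0.253. These ratios were separate between the groups, as was that of *Pacsin2* at 0.154 to 0.185 against 0.244 to 0.292. The log2 difference was 0.47 for *Ptrf*, 1.02 for *Prkcdbp*, -1.69 for *Sdpr* and -0.72 for *Pacsin2*, each at the smallest p of the two-sided exact permutation test (p = 0.1, or 0.15 after Benjamini-Hochberg adjustment over the 6 ratios). For *Sdpr* and *Pacsin2* this separation follows from their own levels, which lay below the fragments in every mural library while *Cav1* lay above. The ratios of *Ehd2* (log2 difference 0.04, exact p = 0.9) and *Cav2* (-0.15, exact p = 0.7) overlapped between the groups.

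**Figure D4:**
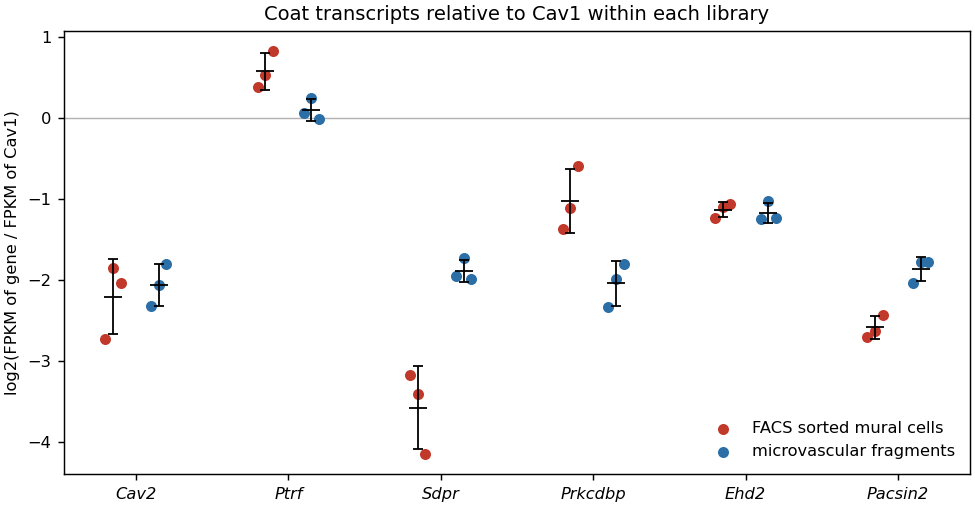
Log2 of the FPKM of *Cav2*, *Ptrf*, *Sdpr*, *Prkcdbp*, *Ehd2* and *Pacsin2* over the *Cav1* FPKM of the same library, 1 point per library, with bars for the mean ± SD of each group. As plain ratios, *Ehd2* stays between 0.420 and 0.490 in all 6 libraries, while *Sdpr* lies at 0.253 to 0.301 in fragments and 0.0565 to 0.111 in mural cells.

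Of 11 accessory genes, the relatives of EHD2 and PACSIN2, the dynamins, *Ror1* and the flotillins, all were tested, 5 were enriched in mural cells, 2 were lower and 4 did not pass (limma), beside 6.43% enriched and 10.1% lower among all genes tested. The median log2 fold change of the list was 0.14. *Ehd3*, which encodes an EHD protein of endosomal recycling, had an FPKM of 42.9, 58.3 and 44.0 in mural cells, against 7.35, 9.30 and 6.47 in fragments. Its ratio of 6.28 (log2 fold change 2.50, SE 0.20, adjusted p = 2.4e-04 in limma) was larger than that of any coat gene tested. *Ehd4*, of the same family, had 21.9, 29.8 and 18.3 in mural cells, against 65.3, 75.7 and 83.9 in fragments, a ratio of 0.31 (log2 fold change -1.66, SE 0.20, adjusted p = 0.0012). The summed FPKM of the 4 EHD genes was 205.5 ± 24.3 and 189.1 ± 3.61 (SD, n = 3 each), and the ranges of the sums overlapped, while *Ehd3* made up 23.4% of it in mural cells and 4.07% in fragments.

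*Pacsin3*, the relative of *Pacsin2* that is known from muscle, had an FPKM of 13.1, 10.4 and 11.8 in mural cells, against 4.18, 3.80 and 4.40 in fragments. It was enriched (log2 fold change 1.31, SE 0.21, adjusted p = 0.0043 in limma), and the PACSIN sum was 44.7 ± 3.56 against 45.1 ± 0.825 (SD, n = 3 each). *Flot2*, for a scaffold protein of flotillin domains, which are membrane domains separate from caveolae, had 52.3, 60.2 and 53.9 against 18.4, 15.4 and 22.2 (log2 fold change 1.53, SE 0.16, adjusted p = 7.4e-04), whereas its partner *Flot1* had a ratio of 0.89 and did not pass. *Ror1*, a receptor kinase homologue reported to hold cavin 1 and caveolin 1 together, had a ratio of 3.71 (log2 fold change 1.63, SE 0.21, adjusted p = 0.0019). Among the dynamins, the GTPases that cut vesicles from the membrane, *Dnm1* was enriched (ratio 2.76, adjusted p = 0.022), *Dnm3* was lower (ratio 0.40, adjusted p = 0.039) and *Dnm2*, the form found in most cells, did not pass (ratio 0.88). *Dnm1* lost its call without fragments 1, 2 or 3, leaving 4 enriched accessory genes, and *Dnm3* lost its call when any of those was left out or without mural cells 3, leaving 1 lower gene. The *Dnm3* value in mural cells 3 was 4.95, against 14.3 and 12.3 in the other mural libraries.

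Of 8 genes that regulate caveolae or act in them, 0 were called at the 2-fold threshold in either direction (limma) and 3 passed the adjusted p alone. The corresponding shares of all genes were 6.43% enriched, 10.1% lower and 22.4% past the adjusted p. An unadjusted p under 0.05 in limma was found for 4 of the 8 (2 higher and 2 lower), and the share of all genes at that threshold was not computed. The median log2 fold change of the 8 regulator genes was -0.11. *Src*, a kinase that phosphorylates caveolin 1, was higher in mural cells with a ratio of 1.76 (log2 fold change 0.79, SE 0.13, adjusted p = 0.0048), and *Fyn*, a kinase of the same family, had a ratio of 1.39 (adjusted p = 0.042). *Nos3*, the endothelial nitric oxide synthase that caveolin 1 inhibits, was lower, with an FPKM of 53.4, 44.0 and 43.4 against 79.3, 70.5 and 63.8 (log2 fold change -0.59, SE 0.14, adjusted p = 0.021). *Plvap*, for the protein of the diaphragm that spans endothelial caveolae, had 9.95, 0.740 and 6.29 in mural cells, against 23.4, 18.7 and 18.1 in fragments. The mural values rest on about 32, 1 and 9 fragments, and the log2 fold change of -2.02 (SE 0.63) missed the threshold (adjusted p = 0.058). *Plvap* was called lower without mural cells 1 and without mural cells 2. *Mfsd2a*, the lipid transporter that restrains caveolar transport in brain endothelium, had 209, 206 and 140 against 224, 254 and 184 and did not pass (adjusted p = 0.38). *Nos3* stood at 65.9% of the fragment level, *Mfsd2a* at 83.7% and *Plvap* at 28.2%, beside a median of 63.3% for the endothelial markers. The part of endothelial cells in the mural values of these genes was not tested.

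Clathrin coat genes, which serve the other main coated pit of the plasma membrane, were set beside the caveolae coat. None of 9 was called at the 2-fold threshold in either direction (limma), and at an adjusted p under 0.05 alone *Clta* (ratio 0.58), *Cltc* (0.71) and *Picalm* (0.76) were lower and *Ap2s1* (1.43) was higher. These 0 of 9 and 4 of 9 stand beside 6.43% enriched, 10.1% lower and 22.4% past the adjusted p among all genes. At an unadjusted p under 0.05 in limma there were 5 lower and 2 higher, and the share of all genes at that threshold was not computed. The median log2 fold change of the 9 clathrin genes was -0.37, and their summed FPKM was 731.6 to 762.1 in mural cells and 840.5 to 863.7 in fragments.

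The coat genes were set beside the marker lists. Mural markers ran from 647% to 1088% of the fragment level and endothelial markers from 35.3% to 129%. *Prkcdbp* stood at 279%, *Ptrf* at 188%, *Ehd2* at 139%, *Cav1* at 135%, *Cav2* at 127%, *Pacsin2* at 82.4% and *Sdpr* at 44.0%. No tested coat gene reached the lowest mural marker, *Cspg4*, whose promoter drove a reporter used in the sort. *Prkcdbp*, *Ptrf*, *Ehd2* and *Cav1* exceeded the highest endothelial marker, *Esam* (129%), while *Cav2*, *Pacsin2* and *Sdpr* lay inside the endothelial range. The next highest endothelial marker was *Cldn5* at 81.1%, so *Cav2* and *Pacsin2* lay inside the range through *Esam* alone. The sorted cells also held endothelial markers, at a median of 63.3% of the fragment level. How much of each coat messenger in either group came from mural and how much from endothelial cells was not tested.

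**Figure D5:**
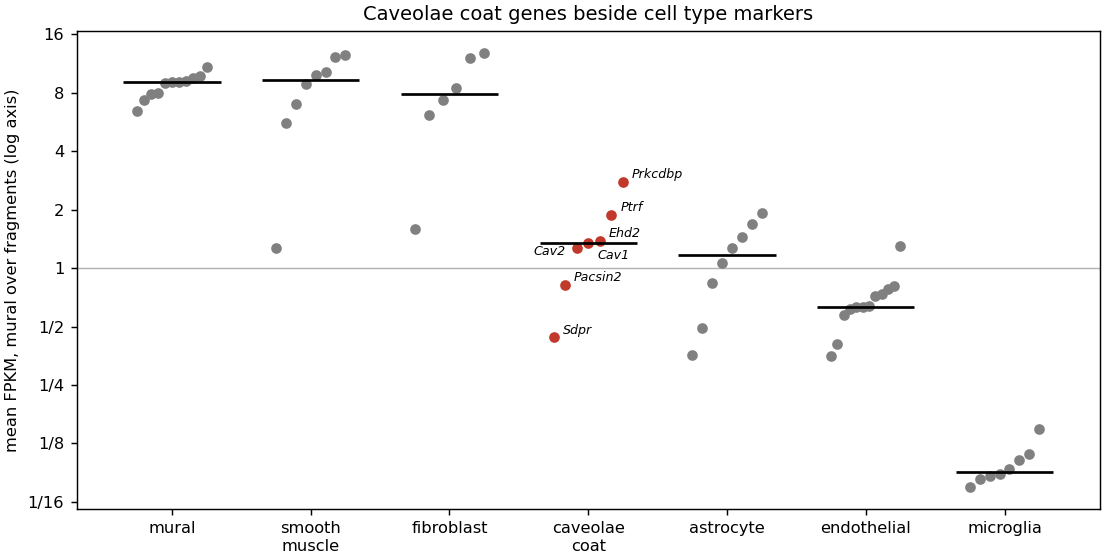
Ratio of mean FPKM, mural cells over microvascular fragments (log axis), 1 point for each tested gene of the caveolae coat and of 6 marker lists, with a black line at the median of each list. The coat genes spread from 0.44 (*Sdpr*) to 2.79 (*Prkcdbp*), below the 11 mural markers and above the microglial markers.

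The genes whose levels followed the coat most closely were sought by Pearson's r of log2(FPKM + 1) over the 6 libraries, which carries both the group difference and the spread within groups and is given as a description. For *Cav1* they were *Vps45* (r = 0.996), *Slc6a17* (0.995) and *Cops6* (0.994), with 93 genes above 0.95. For *Ptrf* they were *Gpr125* (0.997), *Rab11b* (0.996) and *Tpm1* (0.996), with 449 genes above 0.95. In the neighbourhood of the caveolin pair on chromosome 6, the protein-coding genes within 200 kb were *Tes*, with a ratio of 1.00 (adjusted p = 0.98 in limma), and *Met*, with an FPKM of 0.839, 0.209 and 5.09 in mural cells, against 1.69, 2.03 and 2.22 in fragments (adjusted p = 0.74).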

How the data were processed

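The authors deposited a table for every library, giving FPKM by Ensembl gene. Per the submitters' processing notes, TopHat2 2.0.4, Picard 1.92 and Cufflinks 2.2.1 were used with NCBIM37. Duplicate removal lowers the values of very abundant genes, and FPKM of genes with several transcripts depends on how Cufflinks assigned fragments to them. Scaling factors computed here lay between 0.992 and 1.02.

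Symbols and coordinates came from the GENCODE annotation of NCBIM37, which held 33116 of 33460 genes. Ratios are of mean FPKM over 3 libraries. Tests used limma 3.58.1 (R 4.3.3, trended variance) on log2(FPKM + 1) of the 14801 genes that reached 1 FPKM in 3 or more libraries, and p-values were adjusted by the Benjamini-Hochberg method over all of them. FPKM are not counts, so no count test was used. A ratio above 2 with an adjusted p below 0.05 made a gene enriched, and a ratio below 0.5 with the same p made it lower. Adding 1 understates the change of low genes. Ratios within a library were compared with two-sided exact permutation tests (SciPy 1.17.1, Python 3.11.15, pandas 2.3.3, NumPy 2.4.6). On simulated data the limma step was tested before use.

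The value of 1 fragment was worked out from single-transcript genes. At an effective length of 1 kb it was 0.566, 1.35 and 1.28 FPKM in mural cells 1 to 3 and 0.216 to 0.238 in the fragment libraries, which were therefore the deeper ones. Between 97.7 and 98.9% of low values came out whole within 0.05. The intervals of fold changes cover the spread between libraries.

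The members, the other lists and the rule for named genes (all genes of the coat, accessory, regulator and clathrin lists, those nearest in pattern to *Cav1* and *Ptrf*, and the protein-coding neighbours of the caveolins) were chosen with earlier results of these data known. Ratios between relatives other than those to *Cav1* were added after the values were seen. The alternatives were another pseudocount, median-ratio or quantile scaling, a replicate block, no intensity trend, other filters, a stricter threshold, calls by the limma fold change, and leaving out each library. Promoters are from RefSeq (GRCm38.p6).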

Additional observations from a re-analysis of the deposited data

How the results depend on the processing

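*Prkcdbp* was called enriched under every alternative. Leaving out 1 library gave 1 to 2 enriched coat genes, the second being *Ptrf* without mural cells 1, and 0 to 1 lower ones. At an adjusted p under 0.01 there were 0 lower coat genes. Over all genes, 952 were enriched and 1493 lower. With quantile normalization, which moved the median log2 fold change of all genes from -0.12 to 0.002, they were 1195 and 1100. Lower genes numbered 948 with a filter at an FPKM of 5, 845 at an adjusted p under 0.01 and 607 to 1733 without 1 library, while enriched genes numbered 667 to 1195 over the alternatives that kept all libraries. Enriched accessory genes fell from 5 to 4, losing *Dnm1*, at an adjusted p under 0.01. Lower accessory genes fell from 2 to 1 (*Ehd4*) with a pseudocount of 0.1, no intensity trend, no filter or an adjusted p under 0.01, and were 1 to 2 without 1 library. Lower regulator genes went from 0 to 1 (*Plvap*) with quantile normalization, the replicate block or protein-coding genes alone, and were 0 to 1 without 1 library. The log2 difference of *Cav2* to *Cav1* was 0.12 without mural cells 1 (range -0.32 to 0.12), and that of *Ehd2* to *Cav1* was -0.015 with quantile normalization and -0.0043 without fragments 1 (range -0.0043 to 0.11). The cause was not tested.

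The replicate numbers are not stated to mark an animal. To look for a shared animal, each gene's mean within its group was subtracted from log2(FPKM + 1). What remained was correlated between mural and fragment samples over the 14801 tested genes. These correlations of deviations, not of levels, were 0.082, 0.020 and 0.045 for same-numbered samples, none over 0.1. Even so, each mural sample correlated best with its own number. With the replicate block, 900 genes were enriched and 1344 lower, *Prkcdbp* and *Sdpr* kept their calls, and *Ehd2* had an adjusted p of 0.072 in limma. The mural libraries were the shallower, which limits statements on *Cav3*, *Murc*, *Plvap* and *Sdpr* there.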
